A study of Rattus norvegicus with 24 samples.

Results

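The Wnt family described here comprises 49 genes of the count table whose symbols mark them as Wnt ligands, Wnt receptors, secreted Wnt antagonists or the pathway proteins Dact, Axin2 and Lef1, out of 32883 genes in all. The 49 members divide into 19 Wnt ligands, 4 R-spondins, 10 Frizzled receptors, the 2 coreceptors Lrp5 and Lrp6, 9 secreted antagonists and 5 intracellular proteins. Membership was set by symbol, with no use of expression. The 24 libraries were made from messenger RNA of 4 organs (brain, liver, spleen and thymus) taken from 7-month-old rats of the Sprague-Dawley stock. In each tissue 3 libraries came from the group that the labels call SAM-exposed and 3 from sham-exposed rats; the series title speaks of polychlorinated biphenyls (PCBs), persistent chlorinated industrial compounds. The labels give no dose, route or duration, no sex and no brain region. SAM libraries carry the animal numbers 1, 2 and 3 in liver and brain and 1, 3 and 5 in thymus and spleen. Sham libraries carry 13, 14 and 15 in liver, 13, 15 and 16 in brain, and 14, 15 and 17 in thymus and spleen. Numbers recur across tissues, but the labels do not say outright that equal numbers are the same rat, so p-values measure the spread between these libraries.

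Wnt proteins are secreted, lipid-modified signals that bind Frizzled receptors at the cell surface. With the coreceptors Lrp5 and Lrp6 they stabilise beta-catenin, which enters the nucleus and switches on genes with the DNA-binding proteins of the TCF/LEF family, whereas other Wnts act through Frizzled and Ror receptors without beta-catenin. Sfrp proteins and Frzb bind Wnts outside the cell, Dickkopf (Dkk) proteins bind the coreceptors, and R-spondins raise receptor levels at the surface through Lgr4, Lgr5 and Lgr6. In the thymus the pathway is known for thymocyte development and for the upkeep of thymic epithelium, in the liver for the identity of hepatocytes around the central vein, and in the brain for regional patterning and for blood vessel growth.

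Levels are given in CPM, counts scaled to library size. By library totals alone 1 CPM stood for 12.9 to 20.1 counts, depending on depth. All levels printed were scaled further between libraries, as described below, so these figures do not convert them to counts. Each tissue carried the markers of its label: summed CPM was 163665 to 181822 for hepatocyte markers in Sham liver, 6052 to 6709 for neuron markers in Sham brain, 10156 to 11344 for thymocyte markers in Sham thymus and 2142 to 2576 for B cell markers in Sham spleen. Several libraries stood apart from their group. The brain libraries of SAM 1 and SAM 2 had 957 and 918 summed CPM of 9 olfactory bulb markers, against 52.7 in SAM 3 and 41.1 to 56.4 in Sham. Mitochondrially encoded genes took 17.8% of the liver counts of SAM 1 against 5.71 to 8.07% in the other liver libraries, and 5.64% and 8.18% of the thymus counts of SAM 1 and Sham 15 against 2.95 to 3.64% in the rest.

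The first question was where each member is expressed in unexposed rats. The 12 Sham libraries were brought onto 1 scale with TMM, a scaling that sets most genes level between libraries; it multiplied the CPM of liver by 2.28 and those of brain, thymus and spleen by 0.837, 0.684 and 0.770. All levels in the tissue comparison are CPM on this scale, and each gene is compared only with itself. Enough counts for the test were present for 39 members, and by edgeR's quasi-likelihood F-test, adjusted by the Benjamini-Hochberg method over all genes, the level differed between tissues for all 39, as it did for 97.7% of the 17204 genes tested. The highest tissue stood above the next in 32 of the 39, against 75.3% of all genes. That tissue was brain for 17 members (25.7% of all genes were highest in brain and above the next tissue), liver for 6 (23.4%), thymus for 5 (13.9%) and spleen for 4 (12.3%). In the other 7 members (Fzd6, Rspo1, Rspo3, Wnt5a, Wnt6, Wnt11 and Wnt16) the highest tissue was not told apart from the next. With DESeq2 size factors in place of TMM the median log2 difference over all genes moved from 0.01 to -0.14 between liver and brain and from 0 to 0.15 between brain and spleen, and no member changed its highest tissue. The second tissue stood above the third in 22 of the 39 members and the third above the fourth in 23. The heat map of tissue shares shows brain and the other tissues holding separate sets of members.

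**Figure D1:**
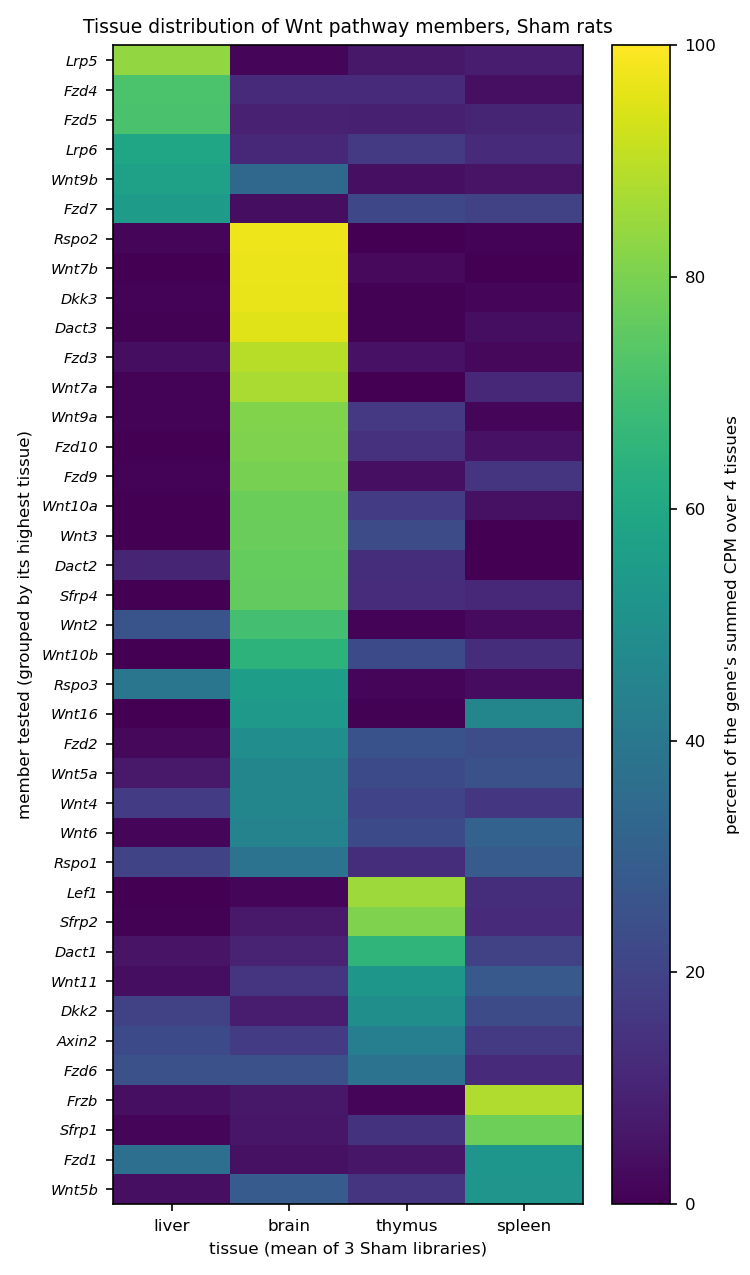
Each row is 1 of the 39 members tested and each column a tissue; colour gives the percent of the gene's CPM, summed over the 4 tissue means of 3 Sham libraries, that falls in that tissue. Rspo2, Wnt7b, Dkk3 and Dact3 lie almost wholly in brain, Lrp5 mostly in liver, Lef1 and Sfrp2 in thymus, and Frzb and Sfrp1 in spleen.

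Brain held the largest set. Rspo2, an R-spondin that amplifies Wnt signals, was at 28.9, 15.6 and 27.5 CPM in the 3 Sham brain libraries, 64.5 times the mean of the next tissue, liver (0.372 ± 0.223 CPM, SD, n = 3; adjusted p = 3.07e-08). Dkk3, a divergent Dickkopf member for which binding to the coreceptors is not established, was at 447, 330.4 and 348 CPM in brain, 56.1 times its mean in spleen. Wnt7b, a ligand of brain blood vessel growth, was at 27.98, 19.6 and 20.9 CPM and 37.2 times its mean in thymus, with 0 counts in the 3 spleen libraries. Dact3, a binding partner of Dishevelled, was at 157, 149 and 133 CPM, 25.2 times its mean in spleen. For none of these 4 genes did any library of another tissue reach the lowest brain library. The other 13 of the brain set (Wnt2, Wnt3, Wnt4, Wnt7a, Wnt9a, Wnt10a, Wnt10b, Fzd2, Fzd3, Fzd9, Fzd10, Sfrp4 and Dact2) lay between 1.94 times (Fzd2) and 18.2 times (Fzd3) their next tissue.

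Liver held mostly receptors, and its values rest most on the scaling. Lrp5, one of the coreceptors, was at 425, 551 and 547 CPM in Sham liver, 10.7 times its mean in spleen (adjusted p = 2.39e-10), and Lrp6 at 164, 163 and 202 CPM, 3.45 times its mean in thymus. Fzd4 was at 128, 131 and 142 CPM, 5.76 times thymus, and Fzd5 at 9.16, 11.3 and 16.5 CPM, 6.84 times spleen. On this scale all 3 liver libraries exceeded every library of the other tissues for these 4 receptors. With library totals alone the mean of Lrp6 was 77.6 CPM in liver and 74.9 in thymus, which were not told apart (adjusted p = 0.701). On those totals liver still stood above the next tissue for Lrp5 (223 against 61.4 CPM), Fzd4 (58.9 against 33.9; adjusted p = 0.0101) and Fzd5 (5.39 against 2.33), by smaller ratios. Fzd7 and Wnt9b completed the liver set, but with library totals Wnt9b was highest in brain and Fzd7 in thymus, and with DESeq2 size factors Wnt9b was not told apart from brain (adjusted p = 0.131). Of the ligands known from the liver's central vein, Wnt2 averaged 2.44 ± 0.377 CPM in liver and 6.58 ± 0.353 in brain, and the R-spondin Rspo3 11.3 ± 0.747 and 15.97 ± 2.71, the latter pair not distinguished with TMM (adjusted p = 0.0735) but higher in brain with DESeq2 size factors (adjusted p = 0.0166) and with library totals (adjusted p = 4.30e-06).

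Thymus held the transcription factor of the pathway. Lef1, which binds DNA with beta-catenin and acts in early thymocytes, was at 318, 276 and 328 CPM in the thymus of Sham rats, 6.48 times its mean in spleen (47.4 ± 12.7 CPM; adjusted p = 9.35e-08), and its 4 tissue means differed at every step of their order. Sfrp2, a Wnt-binding antagonist made by mesenchyme, was at 18.5, 20.6 and 26.5 CPM, 6.70 times spleen. Dact1, a Dishevelled partner, was at 18.2, 11.7 and 13.6 CPM, 3.33 times spleen, and Dkk2 at 4.60, 5.61 and 6.28, 2.13 times spleen. Every thymus library lay above every library of the other tissues for these 4. Axin2, the scaffold of beta-catenin destruction and a feedback target of the pathway, averaged 48.1 ± 5.80 CPM in thymus and 25.2 ± 5.13 in liver (adjusted p = 5.82e-05), while brain (19.4 ± 1.62) and spleen (19.05 ± 2.36) were not told apart (adjusted p = 0.883).

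Spleen held 2 secreted antagonists. Frzb, also known as Sfrp3, was at 106, 81.7 and 71.1 CPM in Sham spleen, 13.8 times brain (6.27 ± 0.594; adjusted p = 4.64e-10). Sfrp1 was at 111, 72.5 and 70.2 CPM, 5.30 times thymus. Neither gene had a spleen library within reach of another tissue. For Wnt5b (4.66, 6.51 and 3.04 CPM, 1.81 times brain, adjusted p = 0.035, or 0.0839 with DESeq2 size factors) the groups were apart, and for Fzd1 (56.4, 57.9 and 43.1 CPM, 1.44 times liver, adjusted p = 0.0255) they overlapped. The other 10 members had too few counts for the tissue test (Dkk1, Dkk4, Fzd8, Rspo4, Sfrp5, Wnt1, Wnt2b, Wnt3a, Wnt8a and Wnt8b). Dkk1 and Fzd8 had 0 counts in all 24 libraries; 3 counts over the 3 Sham libraries of a tissue would correspond to between 0.0354 CPM (thymus) and 0.139 CPM (liver).

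Promoter sequence, 250 bases before to 50 bases after the gene start on the GRCr8 build of RefSeq, was at hand for 34 of the 49 members. The word CTTTGAA and its variants ending in AT, TA or TT, forms of the site that TCF/LEF proteins bind, were searched on both strands. At least 1 occurred in 6 of the 34 windows (17.6%: Axin2, Dkk1, Fzd7, Sfrp5, Wnt3 and Wnt8a) and in 17.1% of all 33469 promoter windows. Axin2 and Lef1 are shown, with motif words in capitals, as a feedback target of the pathway and a DNA-binding partner of beta-catenin. Axin2 (chr10:94398535-94398834, plus strand) held 2 of them, which 2.12% of all windows did or exceeded. The window of Lef1 (chr2:222340463-222340762, plus strand) held none. A match is a run of letters and not a measured binding site.
Axin2: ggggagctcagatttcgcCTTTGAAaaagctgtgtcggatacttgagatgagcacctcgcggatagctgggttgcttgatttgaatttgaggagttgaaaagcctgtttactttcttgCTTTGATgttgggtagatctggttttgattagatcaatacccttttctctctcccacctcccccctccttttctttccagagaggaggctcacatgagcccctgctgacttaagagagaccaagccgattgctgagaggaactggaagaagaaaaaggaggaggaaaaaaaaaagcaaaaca
Lef1: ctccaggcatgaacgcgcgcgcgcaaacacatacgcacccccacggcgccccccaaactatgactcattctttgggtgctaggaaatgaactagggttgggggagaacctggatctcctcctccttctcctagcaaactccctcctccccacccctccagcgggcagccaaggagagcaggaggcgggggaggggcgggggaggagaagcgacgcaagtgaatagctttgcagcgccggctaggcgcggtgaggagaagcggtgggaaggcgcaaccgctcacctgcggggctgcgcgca

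Frzb and Dact1 are shown for their contrast in CG dinucleotides, in capitals, since they had the lowest p in the comparison of exposure differences between tissues. Frzb (chr3:85772047-85772346, minus strand) had 4, the fewest among the 34 windows, and Dact1 (chr6:95526440-95526739, plus strand) had 48; the median was 24.5 for members and 7 for all windows.
Frzb: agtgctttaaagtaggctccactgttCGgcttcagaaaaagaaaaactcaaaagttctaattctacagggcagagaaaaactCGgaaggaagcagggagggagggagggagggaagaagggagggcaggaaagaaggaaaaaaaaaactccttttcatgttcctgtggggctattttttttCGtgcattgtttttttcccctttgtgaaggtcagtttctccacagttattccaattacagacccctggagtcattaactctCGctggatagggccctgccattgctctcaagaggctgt
Dact1: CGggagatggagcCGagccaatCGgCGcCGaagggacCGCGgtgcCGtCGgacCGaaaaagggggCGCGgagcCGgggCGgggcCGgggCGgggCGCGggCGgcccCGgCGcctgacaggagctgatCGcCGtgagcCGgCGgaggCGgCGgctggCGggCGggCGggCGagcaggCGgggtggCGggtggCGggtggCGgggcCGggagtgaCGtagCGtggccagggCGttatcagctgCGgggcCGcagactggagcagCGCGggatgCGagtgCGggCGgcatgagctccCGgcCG

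The second question was whether these genes differed between SAM and Sham rats within each tissue. Levels from here on are CPM scaled by TMM within the tissue, so they cannot be set beside the cross-tissue values, and a log2 fold change is SAM over Sham with its standard error. No member passed an adjusted p of 0.05 in any tissue with edgeR, and neither did any other gene. Of the 49 members, 15 had enough counts for the test in all 4 tissues, 15 in 3 tissues, 8 in 2, 2 in 1 and 9 in none (Dkk1, Dkk4, Fzd8, Rspo4, Sfrp5, Wnt1, Wnt3a, Wnt8a and Wnt8b). At an unadjusted p under 0.05 there were 1 of 18 tested members in liver (2.7% of all tested genes), 16 of 40 in brain (20.5%), 7 of 34 in thymus (6.13%) and 2 of 31 in spleen (4.11%). DESeq2 called 0 members in liver and 0 in spleen, where it called 0.0111% and 0.0343% of all genes. It called 7 members in brain (Frzb, Sfrp1, Sfrp5, Wnt2b, Wnt5a, Wnt5b and Wnt6), against 2.35% of all genes. Thymus had 1 member called (Sfrp1), against 0.466% of all genes. The counts that follow are again those at an unadjusted p under 0.05 with edgeR. In brain 15 of the 16 were higher in SAM. In thymus all 7 were lower, but without SAM 1 and Sham 15 there were 4 lower and 2 higher. Because whole tissue was sequenced, fewer cells of a type and less RNA per cell cannot be told apart in any of these values.

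**Figure D2:**
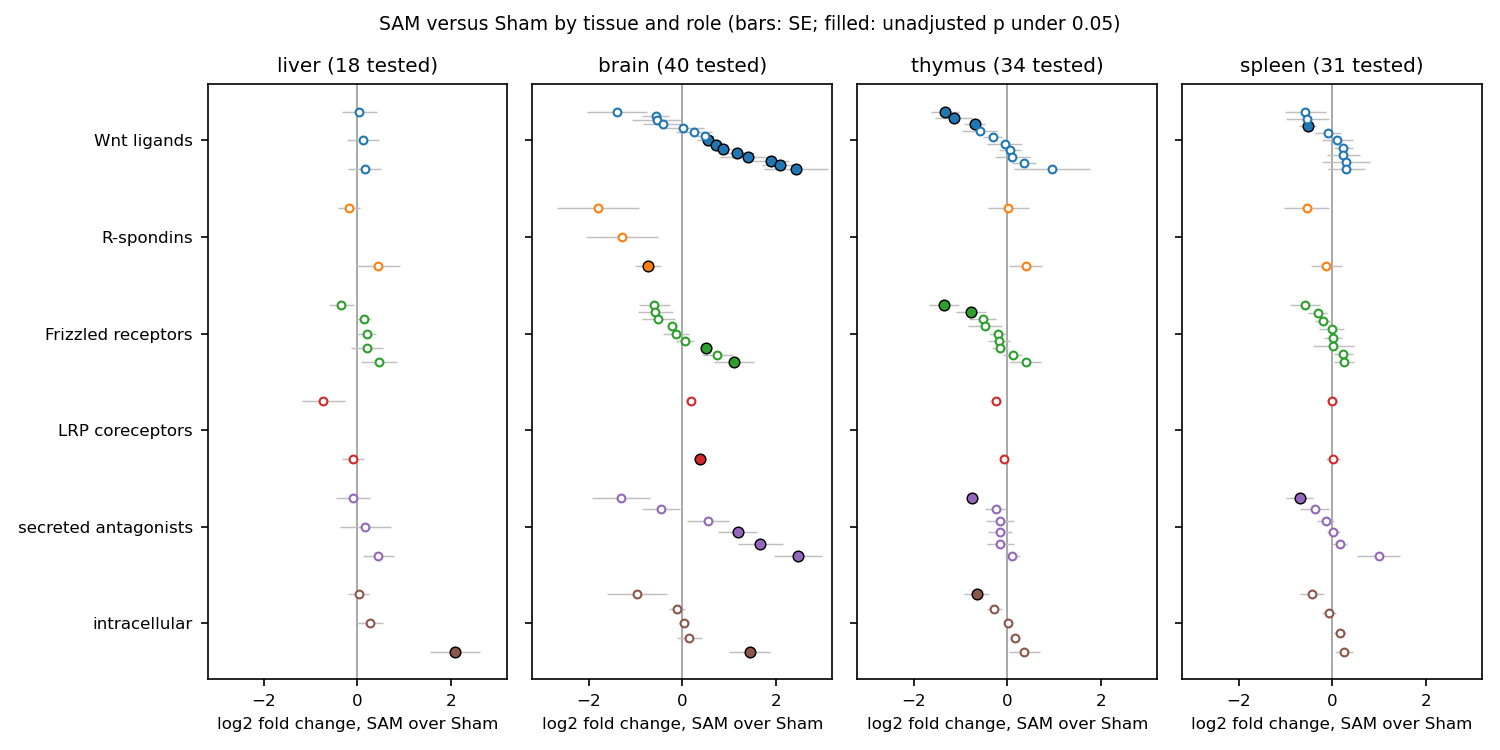
Each point is 1 tested member, placed by its log2 fold change of SAM over Sham with its SE on the x axis and grouped by role on the y axis (vertical position within a role only separates points); filled points had an unadjusted p under 0.05. Filled points lie mostly to the right of 0 in brain and all to the left in thymus.

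In brain, several ligands and Wnt-binding antagonists were higher in SAM at an unadjusted p under 0.05, none after adjustment with edgeR. For Wnt5a, Wnt7a, Wnt9b and Sfrp2 among them, SAM 3 lay inside the Sham range. By role, 8 of 15 tested ligands, 3 of 6 antagonists, 2 of 9 Frizzled receptors, 1 of 2 coreceptors and 1 of 5 intracellular members were higher at an unadjusted p under 0.05 (11.9% of all genes were), and 1 of 3 R-spondins was lower (8.61% of all genes). The median log2 fold change was 0.16 over the 40 members and 0.01 over all tested genes. In 11 members every SAM library lay above every Sham library (11.6% of all genes) and in 3 every one lay below (12.2%).

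Wnt6 was at 8.32, 7.97 and 4.38 CPM in SAM 1, SAM 2 and SAM 3 and at 1.005, 1.45 and 2.37 CPM in Sham 13, 15 and 16, a log2 fold change of 2.09 ± 0.38 (edgeR, unadjusted p = 0.00109, adjusted p = 0.221). The ligand Wnt2b was at 2.72, 2.44 and 1.38 against 0.502, 0.424 and 0.824 CPM, 1.89 ± 0.38 on the log2 scale (unadjusted p = 0.0018, adjusted p = 0.221). For each of these ligands SAM 1 and SAM 2 were highest and SAM 3 lay between them and Sham. Wnt5b, mainly known from signalling without beta-catenin, differed in that SAM 3 was the highest library: 5.71, 4.94 and 6.81 CPM in SAM against 3.24, 3.09 and 3.24 in Sham, 0.86 ± 0.18 (unadjusted p = 0.00199, adjusted p = 0.221). Its relative Wnt5a was at 46.1, 31.7 and 5.35 CPM against 4.75, 5.33 and 5.41, 2.43 ± 0.68 (unadjusted p = 0.00992, adjusted p = 0.221); SAM 3 lay within the Sham range, and the difference rested on SAM 1 and SAM 2. Wnt10b was at 3.53, 3.09 and 2.19 against 2.01, 2.06 and 2.01 CPM, 0.55 ± 0.23 (unadjusted p = 0.0495, adjusted p = 0.242), with the groups apart and SAM 3 nearest to Sham. The p of Wnt10b was above 0.05 when any library other than SAM 3 was left out, and its log2 fold change was 0.11 with SAM 3 as the only SAM library.

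**Figure D3:**
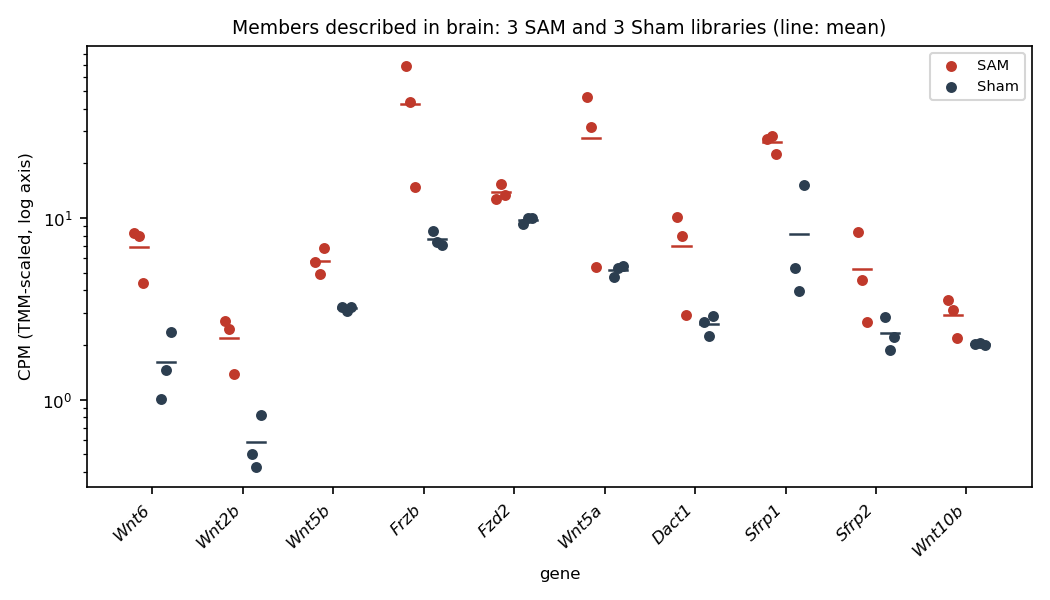
CPM on a log axis of the 10 members described in brain, 1 point per library, with SAM in red, Sham in dark blue and a line at each mean. The SAM points of Frzb, Wnt5a and Dact1 spread widely, with SAM 3 the lowest and nearest to Sham; those of Wnt5b and Fzd2 lie close together above Sham.

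Among the antagonists, Frzb was at 69.1, 43.4 and 14.7 CPM in SAM and 8.49, 7.39 and 7.11 in Sham (2.47 ± 0.52 on the log2 scale; unadjusted p = 0.00225, adjusted p = 0.221). Sfrp1 was at 27.3, 28.2 and 22.6 against 5.30, 3.94 and 15.2 CPM, 1.67 ± 0.48 (unadjusted p = 0.0107, adjusted p = 0.221). For Sfrp1 all 3 SAM libraries were alike, and Sham 16 was the Sham library nearest to them. Sfrp2 was at 8.37, 4.58 and 2.67 against 2.85, 1.88 and 2.21 CPM, 1.18 ± 0.42 (unadjusted p = 0.0277, adjusted p = 0.225), and overlapped through SAM 3. It was 0.66 without SAM 1 (unadjusted p = 0.0869), and its p was also above 0.05 without Sham 15 or Sham 16. The receptor Fzd2 was at 12.7, 15.5 and 13.4 against 9.21, 9.94 and 9.99 CPM, 0.51 ± 0.12 (unadjusted p = 0.004, adjusted p = 0.221), with the groups apart and little spread within either. Dact1 was at 10.2, 7.91 and 2.92 against 2.68, 2.24 and 2.88 CPM, 1.44 ± 0.43 (unadjusted p = 0.0135, adjusted p = 0.221); SAM 3 barely exceeded the highest Sham library, so the difference rested on SAM 1 and SAM 2.

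The brain libraries of SAM 1 and SAM 2 lay outside the Sham range in many members of the family, in both directions. Both lay above the Sham range in 18 of the 40 tested members and below it in 15. SAM 3 followed them above that range in 11 of the 18, but below it in only 3 of the 15 (Dkk3, Rspo3 and Wnt2). In 5 of the 15 (Dact3, Fzd4, Sfrp4, Wnt10a and Wnt4) SAM 3 lay above the highest Sham library. The share of all genes in these positions was not counted, so the counts do not set the family apart from other genes. With SAM 1 and SAM 2 as the only SAM libraries, 38.1% of all tested genes passed after adjustment. Dkk3, the member so strongly tied to brain, was at 64.1, 112 and 382 CPM in SAM against 547, 404 and 425 in Sham, -1.30 ± 0.62 (unadjusted p = 0.0743). Rspo2 was at 2.99, 5.95 and 28.03 against 35.4, 19.1 and 33.7 CPM, with SAM 3 among the Sham libraries. These 2 genes, like the 5 and the next, fall outside the rule by which genes were named and were picked after their values were seen. Sfrp5, an antagonist removed from the edgeR test by the low-count filter, was at 10.5, 2.50 and 0.0810 CPM in SAM 1, SAM 2 and SAM 3. It had 0 counts in the 3 Sham brain libraries and at most 193 counts in a SAM library. DESeq2, run without that filter, called it (log2 fold change 8.72 ± 2.64, adjusted p = 0.0359). The difference rested on SAM 1 and SAM 2.

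**Figure D4:**
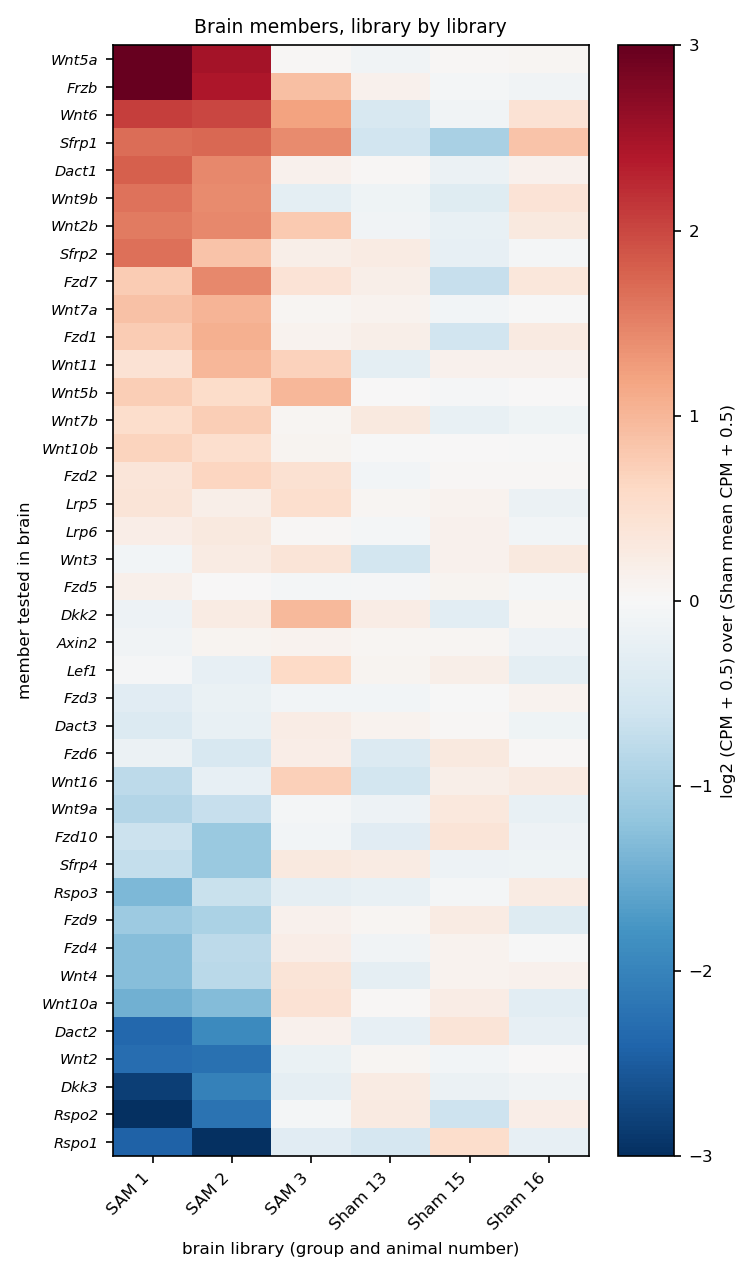
Each row is 1 of the 40 members tested in brain and each column a library; colour is the log2 ratio of CPM to the mean of the 3 Sham libraries after adding 0.5 to both, with red higher and blue lower. The columns of SAM 1 and SAM 2 are strongly coloured at both ends of the ordering, and the column of SAM 3 is pale except for genes such as Sfrp1, Wnt6, Dkk2, Wnt5b and Frzb.

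Of the 16 members under an unadjusted p of 0.05, the count became 9 without SAM 1 and 10 without SAM 2. The share of all genes under that p fell as well, from 20.5% to 9.4% and 8.27%. With SAM 3 as the only SAM brain library, taken to vary as the Sham libraries do, 8 members had an unadjusted p under 0.05, all higher in SAM (7.25% of all genes in that fit, in either direction), and none passed after adjustment. They were Frzb (0.95 ± 0.17), Wnt5b (1.09 ± 0.23), Wnt6 (1.43 ± 0.44), Lrp5 (0.53 ± 0.16), Fzd2 (0.47 ± 0.16), Dkk2 (1.27 ± 0.43), Lef1 (0.63 ± 0.23) and Sfrp1 (1.46 ± 0.59). With SAM 1 and SAM 2 as the only SAM libraries, 31 of 41 tested members passed an adjusted p of 0.05, as 5896 of 15493 genes did, or 38.1%. Wnt9b, counted among the ligands that were higher (1.40 over all libraries), was at -0.42 on the log2 scale with SAM 3 as the only SAM library and at 1.80 without it. Without SAM 3, Wnt5a had a log2 fold change of 2.91 ± 0.17, Frzb of 2.87 ± 0.19, Wnt2 of -2.65 ± 0.19 and Dkk3 of -2.39 ± 0.24.

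Markers of brain regions and of other cell types differed too, some in SAM 1 and SAM 2 and others in all 3 SAM libraries. All 6 tested olfactory bulb markers were higher in SAM (median log2 fold change 3.46), in SAM 1 and SAM 2 alone by their summed level. The 8 forebrain excitatory neuron markers were all lower, 4 at an unadjusted p under 0.05, with summed CPM of 897, 1044 and 1872 in SAM 1, SAM 2 and SAM 3 against 1931 to 2059 in Sham. Striatal markers had log2 fold changes below 0 in 7 of 8, 5 at an unadjusted p under 0.05, with summed CPM of 319, 289 and 322 in SAM 1, SAM 2 and SAM 3 and 306, 592 and 616 in Sham 13, 15 and 16, so that Sham 13 was as low as SAM. The 6 tested meningeal fibroblast markers were higher in SAM, 4 at an unadjusted p under 0.05, summing to 155, 161 and 152 CPM, SAM 3 included, against 52.03 to 108, with Dcn at 1.05 ± 0.19 and Col1a1 at 1.37 ± 0.26 on the log2 scale. Oligodendrocyte markers were below 0 in 5 of 5, 3 of them at an unadjusted p under 0.05 (median -0.40). At that p 2 of 3 tested cerebellum markers were higher (median 1.30), as were 3 of 5 thalamus and midbrain markers (0.69). Of 5 choroid plexus markers 3 were higher and 1 lower (1.13). Of all genes, 11.9% were higher at that p and 8.61% lower. Cerebellum markers summed to 79.03, 68.2 and 29.01 CPM in SAM 1, SAM 2 and SAM 3 against 19.6 to 32.3 in Sham. Choroid plexus markers summed to less in SAM, 110.4 to 113.2 CPM against 114.96 to 123.7, so their summed level and median went opposite ways. Astrocyte and endothelial markers had 1 higher member each at that p, and neuron, microglia and erythroid markers none. Of all these lists, Otx2 (choroid plexus) and Gbx2 (thalamus and midbrain) were at 0 in every brain library. Their part in the differences of the Wnt family was not tested.

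Other genes of the pathway also differed in brain, where 11.9% of all genes were higher and 8.61% lower at an unadjusted p under 0.05. Of 11 tested coreceptors and receptor-turnover genes, 8 were higher in SAM brain at an unadjusted p under 0.05, with a median log2 fold change of 0.63; the list summed to 597, 591 and 366 CPM in SAM 1, SAM 2 and SAM 3 and to 287 to 320.1 in Sham. Among them were Adgra2 (0.58 ± 0.08), which serves Wnt7 signalling in brain vessels, and the R-spondin receptors Lgr4 (0.70 ± 0.18), Lgr5 (3.53 ± 0.89) and Lgr6 (2.78 ± 0.81). At that p 5 of 11 known target genes of the pathway were higher, including Myc (1.23 ± 0.25), Apcdd1 (0.55 ± 0.11) and Tcf7 (0.77 ± 0.22). Of 35 cytoplasmic and nuclear genes 8 were higher (11.9% of all genes), such as Tcf7l2 (0.69 ± 0.16). In that list 3 were lower (8.61% of all genes), such as Gsk3b (-0.29 ± 0.07). Of 8 genes of ligand secretion 3 were higher. The feedback target Axin2 had 22.2, 24.98 and 25.5 CPM in SAM and 24.95, 24.8 and 21.5 in Sham (0.03 ± 0.10 on the log2 scale; unadjusted p = 0.793, adjusted p = 0.881). The Axin2 groups overlapped.

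In thymus the members that differed were lower in SAM. At an unadjusted p under 0.05 they were 3 of 10 tested ligands, 2 of 9 Frizzled receptors, 1 of 6 antagonists and 1 of 5 intracellular members (4.48% of all genes were lower at this p and 1.66% higher). In 6 members every SAM library lay below every Sham library (6.96% of all genes) and in 0 above (4.97%). The median log2 fold change was -0.16 for the 34 members and 0.00 for all tested genes.

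Sfrp1 had the lowest p of any member in any tissue. It was at 13.3, 14.6 and 13.9 CPM in SAM 1, SAM 3 and SAM 5 and at 22.1, 26.3 and 21.9 CPM in Sham 14, 15 and 17, a log2 fold change of -0.75 ± 0.11 (edgeR, unadjusted p = 0.000167, adjusted p = 0.229). The SAM libraries lay close together and all below Sham, and DESeq2 called the gene (adjusted p = 0.000153). Wnt9a was at 0.431, 0.673 and 0.443 against 1.42, 1.40 and 1.12 CPM, -1.33 ± 0.30 (unadjusted p = 0.00245, adjusted p = 0.427). The receptor Fzd10 was at 0.616, 0.729 and 1.14 against 1.62, 2.64 and 2.08 CPM, -1.35 ± 0.32 (unadjusted p = 0.00345, adjusted p = 0.454). Both genes rested on few reads, with no more than 28 and 49 counts in any library, and their groups did not overlap.

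The remaining ligands were a related pair. Wnt10a was at 2.16, 2.41 and 2.15 against 2.78, 3.77 and 4.32 CPM, -0.69 ± 0.22 (unadjusted p = 0.0161, adjusted p = 0.692), and Wnt10b at 0.185, 0.505 and 0.443 against 0.709, 0.861 and 0.966 CPM, -1.14 ± 0.40 (unadjusted p = 0.0216, adjusted p = 0.736). The groups were apart for both, and Wnt10b had at most 19 counts in a library. Without SAM 1 the log2 fold change of Wnt10b was -0.82 (edgeR, unadjusted p = 0.0608), and without Sham 17 that of Wnt10a was -0.54 (unadjusted p = 0.0638). Dact1 was at 8.32, 16.7 and 15.4 against 26.2, 17.5 and 19.6 CPM, -0.65 ± 0.27 (unadjusted p = 0.0416, adjusted p = 0.805), where SAM 1 was far below the rest and SAM 3 lay just under Sham 15. Without SAM 1 it was -0.40 (unadjusted p = 0.0701), and its p was also above 0.05 without SAM 5, Sham 14 or Sham 17. Sfrp2, by contrast, overlapped at 40.8, 33.6 and 29.03 against 26.7, 31.1 and 38.2 CPM, 0.11 ± 0.16 (unadjusted p = 0.528, adjusted p = 0.975), and so did the thymocyte factor Lef1 at 471, 440.3 and 454 against 458, 415 and 473 CPM, 0.02 ± 0.07 (unadjusted p = 0.771, adjusted p = 0.985). Axin2 also overlapped, with 0.16 ± 0.10.

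**Figure D5:**
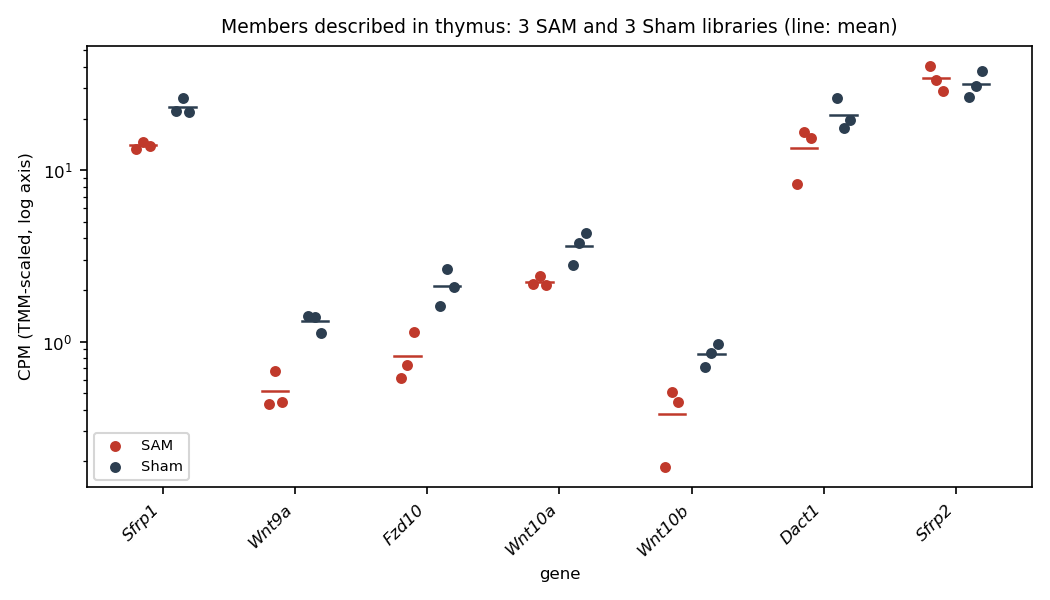
CPM on a log axis of the 7 members described in thymus, 1 point per library, with SAM in red, Sham in dark blue and a line at each mean. The SAM points lie below the Sham points for Sfrp1, Wnt9a, Fzd10, Wnt10a, Wnt10b and Dact1, and mix with them for Sfrp2.

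Markers of thymic epithelium moved the same way. All 12 were lower in SAM, 9 at an unadjusted p under 0.05, and their summed CPM was 955 to 1308 in SAM against 1716 to 1832 in Sham. Krt5 and Krt14, keratins of the medullary epithelium, had log2 fold changes of -0.88 ± 0.08 and -0.77 ± 0.08 (edgeR, adjusted p = 0.0877 for both), and Foxn1, the transcription factor that defines thymic epithelium, -0.40 ± 0.16. Thymocyte markers had log2 fold changes above 0 in 9 of 10, 1 at an unadjusted p under 0.05, with a median of 0.09. Fibroblast markers overlapped in summed level, at 509 to 616 against 441 to 555 CPM, and adipocyte markers ran from 75.3 to 985 CPM, highest in Sham 15 and SAM 1. None of these markers was at 0 in every thymus library, and their part in the Wnt family's differences was not tested. Without SAM 1 and Sham 15 the log2 fold changes were -0.62 for Sfrp1, -1.16 for Wnt9a, -0.99 for Fzd10 and -0.52 for Dact1 (unadjusted p = 0.0163). Wnt10a (-0.64, unadjusted p = 0.0745) and Wnt10b (-0.81, unadjusted p = 0.113) were no longer under 0.05.

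Of 9 tested coreceptors and receptor-turnover genes in thymus 3 were lower at an unadjusted p under 0.05: the Wnt5a receptor Ror1 (-1.14 ± 0.20), the R-spondin receptor Lgr4 (-0.64 ± 0.11) and Lrp4 (-0.47 ± 0.14). Of 34 cytoplasmic and nuclear genes 2 were lower, the planar polarity proteins Vangl1 (-0.46 ± 0.16) and Celsr1 (-0.29 ± 0.11), and 1 higher, the feedback inhibitor Nkd1 (0.28 ± 0.10). Nkd1 and Apcdd1 (0.39 ± 0.15) were the 2 of 10 tested target genes that were higher, and none was lower. Among 11 genes of ligand secretion 1 was higher. Of all genes tested in thymus, 4.48% were lower at that p and 1.66% higher.

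In liver only 18 members had enough counts, and 1 had an unadjusted p under 0.05. Dact1 was at 2.56, 0.958 and 2.80 CPM in SAM 1, SAM 2 and SAM 3 and at 0.569, 0.624 and 0.242 CPM in Sham 13, 14 and 15, a log2 fold change of 2.09 ± 0.54 (edgeR, unadjusted p = 0.00532, adjusted p = 0.802). The groups did not overlap, although the gene had at most 42 counts in a library; 1.79% of all genes were higher at this p and 0.907% lower. Lrp6, next by p, was at 14.9, 67.1 and 51.3 against 70.2, 67.01 and 83.8 CPM, -0.73 ± 0.46 (unadjusted p = 0.157, adjusted p = 0.802), and its low value was that of SAM 1, the library with 17.8% mitochondrial counts. Leaving out SAM 2 or SAM 3 gave 2 members under that p. Without SAM 1 the log2 fold change of Lrp6 was -0.31 and that of Dact1 1.92. The liver's prominent coreceptor Lrp5 overlapped, at 139, 208 and 250.4 against 182, 226 and 227 CPM.

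Across the liver family, every SAM library lay above every Sham library for 2 members, Dact1 and Frzb (5.19% of all genes), and below for none (5.63%). Pericentral hepatocyte genes, a readout of Wnt activity in that tissue, had 5 of 10 tested members on each side of 0, with 1 higher (Notum) and 1 lower (Tbx3) at an unadjusted p under 0.05. Glul, glutamine synthetase of the cells next to the central vein, had a log2 fold change of -0.15 ± 0.19 and Tbx3 of -0.99 ± 0.28 (unadjusted p = 0.0086). Of the other pathway genes, 1 of 9 receptor genes was lower (Lrp4, -0.58 ± 0.23), 2 of 31 cytoplasmic and nuclear genes were higher (Tcf7l1, 0.39 ± 0.15; Dvl2, 0.61 ± 0.25), and the secreted Wnt deacylase Notum was higher (0.57 ± 0.21, unadjusted p = 0.0289). Erythroid markers were higher in SAM liver in 4 of 5 and lower in 1, with summed CPM of 483 to 1128 against 345 to 441, and stellate cell markers overlapped; their part in the value of Dact1 was not tested.

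In spleen 2 of 31 tested members had an unadjusted p under 0.05, both lower in SAM (1.89% of all genes were lower and 2.22% higher). Wnt4, a ligand of stromal cells in several organs, was at 3.77, 5.70 and 4.74 CPM in SAM 1, SAM 3 and SAM 5 and at 7.19, 7.33 and 5.94 CPM in Sham 14, 15 and 17, a log2 fold change of -0.53 ± 0.19 (edgeR, unadjusted p = 0.0254, adjusted p = 0.967). Its groups were apart by a small gap. The count of 2 became 4 without SAM 3, 1 without SAM 5, 3 without Sham 17 and 0 without Sham 15. Without SAM 1 it was 1 higher and 1 lower, and in the fit over 24 libraries 2 higher and 0 lower. Wnt4 itself was no longer under 0.05 without SAM 1, SAM 5, Sham 14 or Sham 15. Sfrp2 was at 2.05, 2.56 and 3.30 against 5.08, 4.90 and 2.75 CPM, -0.70 ± 0.29 (unadjusted p = 0.0416, adjusted p = 0.967), with Sham 17 inside the SAM range and a p above 0.05 without SAM 1, SAM 3, Sham 14 or Sham 15. Dact1 (3.31, 5.33 and 3.93 against 6.27, 6.74 and 3.93 CPM, -0.44 ± 0.26), Sfrp1 (57.02, 128 and 69.5 against 145, 94.04 and 90.9 CPM, -0.37 ± 0.30) and Wnt10b (0.29 ± 0.51) overlapped between the groups.

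The spleen's most specific members did not separate the groups either: Frzb was at 81.8, 124 and 101 CPM in SAM and 139, 106 and 92.1 in Sham, -0.13 ± 0.18 on the log2 scale. In 1 member, Dkk2, every SAM library lay above every Sham library (4.47% of all genes) and in 1, Wnt4, below (4.74%). Of 10 tested receptor genes and 11 genes of ligand secretion none had an unadjusted p under 0.05, and of 34 cytoplasmic and nuclear genes 1 did, Tcf7 (0.38 ± 0.15). Fibroblast markers overlapped in summed level, with 0 of 8 under that p, while T cell markers had log2 fold changes above 0 in 8 of 9 tested, 2 of them under that p.

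The third question was whether the SAM minus Sham difference varied between tissues. In an edgeR fit to the 24 libraries with 3 terms for exposure by tissue, 0 of 41 tested members passed after adjustment, as 0.0113% of 17623 genes did. At an unadjusted p under 0.05 there were 9 members (9.2% of all genes). DESeq2 called 4 members and 1.27% of all genes. The lowest p belonged to Frzb (5.54e-05, adjusted p = 0.0797), followed by Dact1 and Sfrp1 (adjusted p = 0.146 for both). Contrasts between single pairs of tissues passed in 3 cases. The log2 fold change of Frzb was greater in brain than in thymus by 2.67 ± 0.537 (adjusted p = 0.043) and than in spleen by 2.57 ± 0.457 (adjusted p = 0.0463). That of Sfrp1 was greater in brain than in thymus by 2.37 ± 0.489 (adjusted p = 0.0434). Of all genes, 0.255% passed between brain and thymus, 0.0397% between brain and spleen and 0.00567% between liver and thymus, where no member did.

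These 3 calls depended on few libraries. When 1 animal number at a time was left out, the adjusted p ran from 0.000149 to 0.349 for Frzb against thymus, from 0.0007 to 0.373 for Sfrp1 against thymus and from 2.16e-05 to 0.432 for Frzb against spleen. All 3 held without number 3, Sfrp1 also held without number 16, and none held when any 1 of the numbers 1, 2, 5, 13, 14, 15 and 17 was left out. Without brain SAM 1 and SAM 2 none held: Frzb differed between brain and thymus by 1.16 (adjusted p = 0.973) and Sfrp1 by 2.17 (adjusted p = 0.939). For Sfrp1 the size of the difference was thus similar with SAM 3 as the only SAM brain library. In all, 4 members had an unadjusted p under 0.05 in more than 1 tissue: Dact1 in liver, brain and thymus, Sfrp1 and Wnt10b in brain and thymus, and Sfrp2 in brain and spleen. Dact1 was higher in liver and brain and lower in thymus, Sfrp1 and Wnt10b were higher in brain and lower in thymus, and Sfrp2 was higher in brain and lower in spleen. As given above, some of these unadjusted p-values went above 0.05 when certain single libraries were left out. They were those of Dact1 in thymus, and of Wnt10b and Sfrp2 in both their tissues. How many of all genes had such a p in more than 1 tissue, or with opposite directions, was not counted. The 4 members were thus not compared with other genes in this respect. Of all tested genes, 20.5% had an unadjusted p under 0.05 in brain and 6.13% in thymus. The neighbouring gene pairs of the family in RefSeq were Wnt3a and Wnt9a, Wnt9b and Wnt3, Wnt10b and Wnt1, and Wnt6 and Wnt10a. Wnt3a and Wnt1 were tested in no tissue, so their pairs could not be compared. In neither of the remaining pairs did both genes have an unadjusted p under 0.05 in the same tissue.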

How the data were processed

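The deposited table holds raw whole-number counts per gene for 24 libraries of rat liver, brain, thymus and spleen, with Ensembl identifiers and symbols. Per the labels' protocols, total RNA was prepared with RNeasy kits and 500 ng went into a stranded TruSeq mRNA library. The submitters' processing notes name STAR 2.2.1 and the rn6 build without giving them a role; which program counted the reads, with what strand setting and on which annotation, was not given in the sources used here. Of 32883 genes, 47 had no symbol and 421 symbols stood for more than 1 gene; no antisense or neighbouring gene could be separated beyond what the authors' counting did.

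Counts were tested with edgeR 4.0.16 (R 4.3.3): filterByExpr, TMM scaling, glmQLFit and glmQLFTest, with p-values adjusted by the Benjamini-Hochberg method over all genes tested and a threshold of 0.05. SAM and Sham were compared within each tissue (3 against 3 libraries), tissues among the 12 Sham libraries, and the exposure difference between tissues with interaction terms over all 24 libraries. Standard errors were taken as the absolute log2 fold change over the square root of F. CPM used TMM-scaled library sizes. Intervals from counting were not needed, and the limit set by 3 counts covers counting error only. The same steps were tested on simulated data. All simulated libraries of a group shared the same mean for each gene. That test therefore does not cover groups with libraries set apart, such as SAM brain.

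Genes named with values were the members with the lowest unadjusted p in a tissue (up to 6 under 0.05, at least 2), those under 0.05 in 2 or more tissues, the 4 members with the greatest ratio of a tissue over the next, and up to 4 genes of each other list. Levels of Axin2 and Rspo3, of Wnt2 and Lrp5 in liver, of Lef1 in thymus, of Frzb in spleen, and of the brain members said to fall outside this rule, were added after values were seen. The members, the lists and this rule were chosen with earlier results of these data known. Alternatives were DESeq2 1.42.0 and its size factors, no filter on low counts, 1 fit over 24 libraries, omission of each library, and animal number as a block. Leaving out thymus SAM 1 with Sham 15, leaving out brain SAM 1 with SAM 2 in the interaction, and library totals without TMM were added after seeing the data. Promoters came from RefSeq (GRCr8), which differs from rn6, so no coordinate was joined to the counts.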

Additional observations from a re-analysis of the deposited data

Results flagged for a closer look

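The exposure difference, SAM minus Sham on the log2 scale, was flagged between tissues for 4 members, of which only Frzb and Sfrp1 passed in a contrast. For Frzb it was greater by 2.67 in brain than in thymus and by 2.57 in brain than in spleen, and for Sfrp1 by 2.37 in brain than in thymus; these contrasts passed with edgeR at adjusted p = 0.043, 0.0463 and 0.0434, and none of them passed without brain SAM 1 and SAM 2. The other members, Dact1 and Wnt10b, did not pass with edgeR. They were flagged because every SAM library lay above every Sham library in 1 tissue and below in the other. The share of all genes with this arrangement was not counted. In single tissues, every SAM library lay above for 5.19% of all genes in liver and 11.6% in brain, and below for 6.96% in thymus. Dact1 differed by 2.71 between liver and thymus (adjusted p = 0.590) and by 2.04 between brain and thymus (adjusted p = 0.119). Wnt10b differed by 1.63 between brain and thymus (adjusted p = 0.294). Sfrp1 also had this arrangement. The brain libraries of SAM 1 and SAM 2 carried high olfactory bulb markers and the SAM thymus libraries low thymic epithelial markers, and their part in these differences was not tested.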

How the results depend on the processing

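The number of members called changed most in brain, from 0 with edgeR to 7 with DESeq2 and 5 with 1 fit over 24 libraries. It was 0 to 31 when 1 library was left out. All genes called went from 0 to 508 (2.35%), 579 (3.29%) and 0 to 5896 (38.1%) in these fits. Members at an unadjusted p under 0.05 in brain, 16 at first, were 9 to 33 with 1 library left out and 8 without SAM 1 and SAM 2. In thymus DESeq2 called 1 member and 102 genes, while no filter on low counts and the fit over 24 libraries each called 3 genes; members at that p, 7 lower at first, were 4 lower and 1 higher without SAM 1, 5 lower and 1 higher without Sham 14, and 4 lower and 2 higher without SAM 1 and Sham 15. In liver all genes called were 1 with DESeq2 size factors, 1 with no filter, 2 with DESeq2, 3 with the fit over 24 libraries and 0 to 1 with a library left out, and members under an unadjusted p of 0.05 were 2 with no filter, 3 with the fit over 24 libraries and 1 to 2 with a library left out. In spleen DESeq2 called 7 genes, leaving out a library 0 to 1, and members at that p were 0 to 4; 2 lower at first, they were 2 higher in the fit over 24 libraries and 1 each way without SAM 1. The cause of these changes was not tested.

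For the interaction, members called were 1 with no filter, 4 with DESeq2 and 0 to 10 with an animal number left out. All genes called, 2 at first, were 15 with no filter, 310 with DESeq2, 1 without brain SAM 1 and SAM 2, 0 to 766 with a number left out and 0 in thymus and spleen alone. Members at an unadjusted p under 0.05, 9 at first, were 4 without brain SAM 1 and SAM 2, 5 to 20 with a number left out and 2 in thymus and spleen alone. With animal number as a replicate block, 0 members and 3 genes were called and 5 members had that p; in thymus and spleen alone with the replicate block 0 genes were called and 1 member had it. In the tissue distribution the replicate block left 39 members and 16491 genes called. Only 2 of 25 pairs of libraries with a shared number across tissues correlated above 0.1 (range -0.01 to 0.165). The median correlation was 0.036 for shared numbers and -0.015 for different numbers. These weak values do not settle whether equal numbers are the same rat. The main fits did not take the numbers as pairs, and any link between tissues of 1 rat is ignored there. SAM and Sham share no number within a tissue.

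Among the members followed through every alternative, direction turned for Sfrp2 in thymus (0.11 at first), to -0.029 without SAM 1, -0.0058 without Sham 14 and -0.0498 without SAM 1 and Sham 15, with a range of -0.029 to 0.257 over single omissions, and for Wnt10b in spleen, to -0.0511 without SAM 5, with a range of -0.0511 to 0.824. With DESeq2 size factors Wnt9b and Wnt5b no longer stood above their next tissue (adjusted p = 0.131 and 0.0839), while Rspo3 and Wnt5a then did, both in brain (0.0166 and 0.0307). With library totals Lrp6, Wnt9b and Fzd7 lost that call, and Rspo3, Fzd6 and Wnt11 gained it. With 3 libraries a group, and under 50 counts for several ligands, small differences were not detectable.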
